A study of Rattus norvegicus with 9 samples.

Results

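Mitochondrial ribosomal proteins are encoded by nuclear genes, made in the cytosol and imported into mitochondria, where they join mitochondrially encoded ribosomal RNAs in the ribosome that translates the mitochondrial genome. The genes described here are those of the deposited FPKM table whose symbol begins with Mrpl or Mrps and a digit. The rule gave 72 genes of the 11235 in the table, 44 Mrpl genes named for the large subunit and 28 Mrps genes named for the small subunit. Another 3 genes listed with lower-case symbols, mrpl9, mrpl11 and mrpl24, fell outside the rule and were set beside the members.

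Poly(A) RNA from kidneys of wild-type Sprague-Dawley rats aged 6 to 8 weeks was sequenced in 9 libraries, 3 in each of 3 groups. In the I/R + rapamycin group the renal artery was closed for 45 min and reopened (ischaemia and reperfusion), and the animals received rapamycin, an inhibitor of the kinase complex mTORC1. The I/R group had the same injury without the drug, and sham animals were operated on with no ischaemia. The labels gave conflicting accounts of the drug: 1 mg/kg per day by intraperitoneal injection in male rats in one place, and 1 or 2 mg/kg per day by oral gavage in rats of both sexes, with 3 or 7 days of reperfusion, in another, so dose, route, time and sex were taken as unsettled.

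The mitochondrial ribosome makes the hydrophobic core subunits of the respiratory chain and ATP synthase, so its protein genes matter in the kidney tubule, whose transport work runs on oxidative phosphorylation. The large subunit holds the peptidyl transferase centre and the exit tunnel, and the small subunit binds the mRNA and decodes it. About the core shared with bacterial ribosomes lies a shell of proteins found in mitochondria only. mTORC1 controls translation in the cytosol and, in other cell systems, the translation of some nuclear mRNAs for mitochondrial ribosomal proteins, a step that RNA levels do not measure.

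Total counts ranged from 44582251 in I/R + rapamycin 1 to 60538627 in sham 3, and all 72 members were among the 17335 genes with enough counts to be tested. The lowest count of any member in any library was 285, so the spread between libraries and not counting error set the precision. Replicates are numbered without being tied to animals, so the p-values reflect only how much these samples vary, which may be technical. Both kidney tissue and tubular cells are given as the source. Summed CPM (counts scaled to library size by TMM factors) of the 6 proximal tubule markers was 7681 to 9210 in I/R + rapamycin, 9406 to 10364 in I/R and 8144 to 10780 in sham, and all 3 podocyte and all 3 endothelial markers were measured too, at 344 to 476 and 218 to 263 CPM in I/R + rapamycin, 371 to 510 and 247 to 299 CPM in I/R and 555 to 573 and 264 to 279 CPM in sham. That of 5 distal and collecting duct markers was 789 to 864 in I/R + rapamycin, 748 to 952 in I/R and 1001 to 1162 in sham, so that sham lay above both injured groups, as it did for podocytes. At an unadjusted p under 0.05 in edgeR's quasi-likelihood test, 3 of the 5 duct markers were lower than in sham in I/R + rapamycin and 3 in I/R. All 3 podocyte markers were lower than in sham in I/R + rapamycin and 2 in I/R. Of all tested genes, 7.75% and 4.59% were lower in these comparisons, and 6.06% and 4.83% were higher. Of the endothelial markers, 1 was higher and 1 lower than in sham in I/R + rapamycin, and 1 was higher in I/R. The 2 thick limb markers varied within groups, with 4350, 2745 and 2063 CPM in I/R + rapamycin libraries, 1950, 2631 and 3918 CPM in I/R libraries and 2422, 2215 and 2368 CPM in the sham libraries. The summed CPM of 3 red blood cell markers was 84.8 to 524 in I/R + rapamycin, 1242 to 3332 in I/R and 245 to 2552 in sham. At that unadjusted p, all 3 and 2 of the 6 proximal tubule markers were lower in I/R + rapamycin than in I/R. Of tested genes, 9.14% were. There 1 duct marker was higher, where 7.11% of tested genes were. Against sham, 1 red blood cell marker was lower in I/R + rapamycin. No thick limb, fibroblast or immune marker measured reached that p in any comparison. The part of these cell types in the results below was not tested. In RNA from tissue, fewer cells of a type and less RNA per cell cannot be told apart.

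Levels between genes were compared by FPKM, which is per length. Among the large subunit genes mean FPKM over the 9 libraries had a median of 19.1, with 53.8 for Mrpl17 at the top and 6.54 for Mrpl47 at the bottom. Among the small subunit genes the median was 21.6, with 58.3 for Mrps25 at the top and 8.83 for Mrps27 at the bottom. The members thus lay within about an order of magnitude of each other, although each ribosome holds most of these proteins as single copies.

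Mrpl17, the counterpart of a bacterial protein near the exit tunnel, was at 54.7 ± 2.10 FPKM in I/R + rapamycin, 49.9 ± 2.24 FPKM in I/R and 56.8 ± 2.35 FPKM in sham (SD, n = 3 each). Mrpl12, the stalk protein that recruits translation factors, was second with 47.3 ± 4.12 FPKM in I/R + rapamycin, 38.7 ± 4.45 FPKM in I/R and 40.7 ± 6.35 FPKM in sham. Mrpl54 followed with 47.6 ± 5.01 FPKM in I/R + rapamycin, 36.5 ± 9.64 FPKM in I/R and 40.2 ± 8.95 FPKM in sham. The order of Mrpl12 and Mrpl54 rests on less than their spread, while Mrpl17 was above both in mean in every group. The lowest large subunit genes were Mrpl57 at a mean of 7.47 FPKM, Mrpl35 at 7.29 FPKM and Mrpl47 at 6.54 FPKM. Mrpl47 had the longest length implied by the ratio of its counts to its FPKM, 5782 bases, so its low FPKM went with 30.6 to 44.1 CPM per library.

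Mrps25, a protein found in mitochondrial ribosomes only, was at 55.8 ± 3.27 FPKM in I/R + rapamycin, 55.6 ± 5.29 FPKM in I/R and 63.5 ± 6.43 FPKM in sham. Mrps9 and Mrps33 followed at means of 44.6 and 43.1 FPKM. The lowest were Mrps28 at 10.2 FPKM, Mrps10 at 9.50 FPKM and Mrps27, a pentatricopeptide repeat protein, at 8.83 FPKM, which did not differ beyond their spread. Most members varied little between libraries: the ratio of the highest to the lowest CPM had its smallest value, 1.2, for Mrpl10, and only Mrps6 at 2.86, Mrpl54 at 2.18, Mrps35 at 2.11 and Mrps17 at 9.07 exceeded 2.

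**Figure D1:**
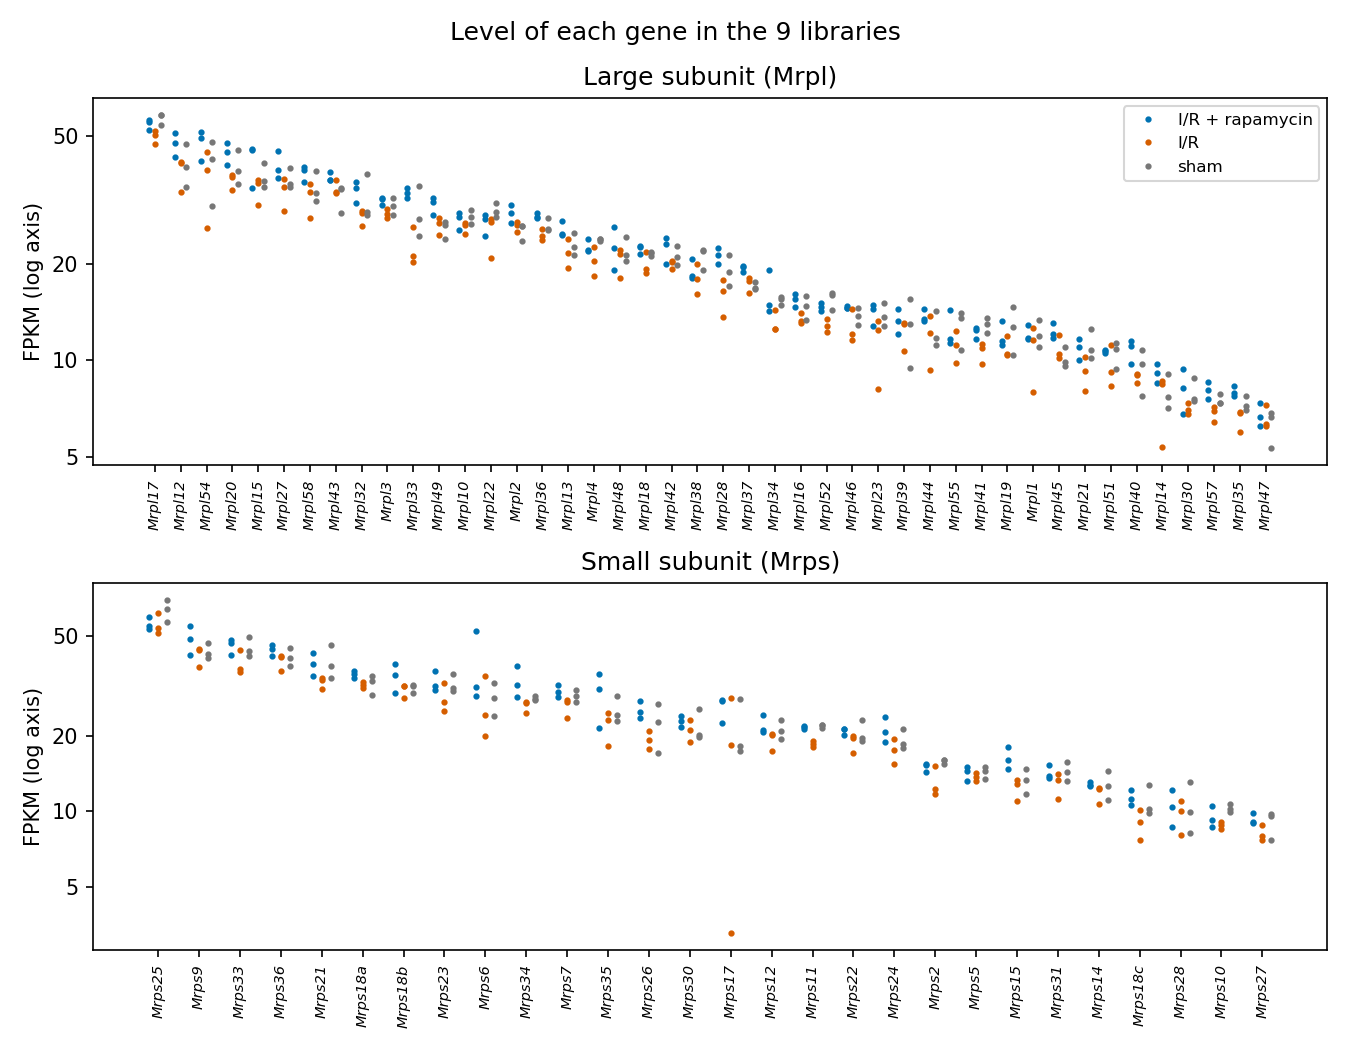
FPKM (log axis) of the 44 large and the 28 small subunit genes, ordered by mean, with 1 point for each of the 9 libraries, coloured by group. Within each subunit the levels run from near 50 FPKM at Mrpl17 and Mrps25 to below 10 FPKM at Mrpl47 and Mrps27, and the single low point belongs to Mrps17 in I/R 3.

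Both subunits moved together from library to library. The level of a subunit in a library was taken as the median, over its genes, of log2 CPM minus the gene's mean over the 9 libraries. For the large subunit it was 0.23, 0.15 and 0.03 in I/R + rapamycin libraries, -0.31, -0.03 and -0.10 in I/R libraries and -0.06, 0.19 and -0.08 in the sham libraries. For the small subunit it was 0.21, 0.18 and -0.02 in I/R + rapamycin libraries, -0.30, -0.01 and -0.10 in I/R libraries and -0.07, 0.19 and -0.08 in the sham libraries. The same median over all tested genes lay between 0.01 and 0.02 in every library.

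For the large subunit the lowest I/R + rapamycin library lay above the highest I/R library, and for the small subunit I/R + rapamycin 3 lay just below I/R 2. The sham group overlapped both others in either subunit: sham 2 lay between I/R + rapamycin 1 and the lowest I/R + rapamycin library, and sham 1 and sham 3 lay below I/R 2. A single library stood out at the bottom: 55 of the 72 members, 33 large and 22 small, had their lowest CPM in I/R 1, where 16.6% of all tested genes had theirs. The highest CPM fell in I/R + rapamycin 1 for 35 members, in sham 2 for 24 and in I/R + rapamycin 2 for 11. Summed over the 72 members, the level averaged 2936 ± 233 CPM in I/R + rapamycin, 2418 ± 204 CPM in I/R and 2685 ± 256 CPM in sham (SD, n = 3 each).

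**Figure D2:**
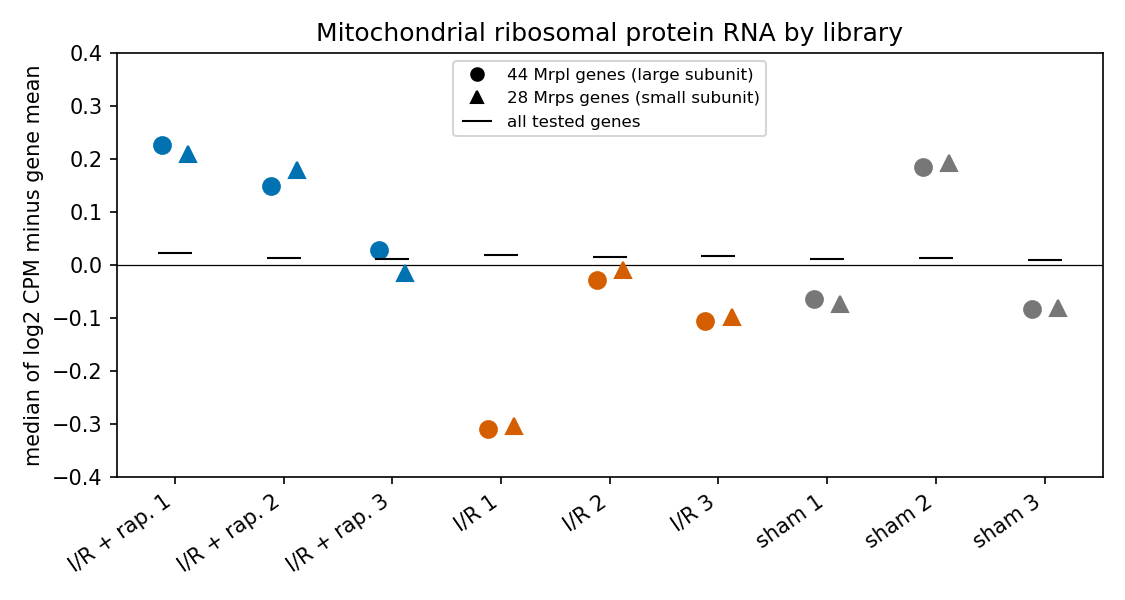
Median over genes of log2 CPM minus the gene's mean over the 9 libraries, for the 44 large subunit genes (circles), the 28 small subunit genes (triangles) and all tested genes (dashes), in each library. The 2 subunits lie close together in every library, I/R 1 is lowest at -0.31 and -0.30, and sham 2 at 0.19 lies among the I/R + rapamycin libraries.

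Setting I/R + rapamycin against I/R asks how treated and untreated injured kidneys differed. All 72 members had a fitted log2 fold change above 0, where 50.8% of all 17335 tested genes did. The median was 0.27 over the large subunit genes, with a range of 0.10 to 0.63, and 0.27 over the small subunit genes, with a range of 0.07 to 0.71, against 0.01 over all tested genes. No member passed edgeR's quasi-likelihood test at a Benjamini-Hochberg adjusted p of 0.05, at which 0.127% of the tested genes were called in either direction. The smallest adjusted p from edgeR's quasi-likelihood test was 0.125 in the large subunit and 0.167 in the small subunit.

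At an unadjusted p under 0.05 in edgeR's quasi-likelihood test, 26 large and 12 small subunit genes were higher, where 7.11% of the tested genes were, and none was lower, where 9.14% of the tested genes were. Every I/R + rapamycin library exceeded every I/R library for 26 large and 12 small subunit genes, where 11.8% of tested genes showed this. With DESeq2, 3 members had an adjusted p under 0.05, Mrpl33 (0.0118), Mrpl28 (0.0471) and Mrps15 (0.0496), all higher, as 1.69% of the genes with a DESeq2 adjusted p were. The count at an unadjusted p under 0.05 depended on single libraries: it was 38 with all libraries, 10 with I/R + rapamycin 1 left out, 16 with I/R + rapamycin 2 left out, 12 with I/R 1 left out and 24 with I/R 3 left out. The medians without I/R 1 were 0.20 in the large and 0.20 in the small subunit.

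Fold changes followed gene length in these libraries. Over 11232 genes the Spearman correlation between the log2 fold change of I/R + rapamycin over I/R and the implied length was -0.48, a description across genes, which are not independent. The members are short, with a median implied length of 1723 bases in the large and 1587 bases in the small subunit against 3203 bases over all named genes. Among 2727 other genes with implied lengths of 1278 to 2454 bases, the interquartile range of the members' lengths, 76.9% were fitted above 0 and the median log2 fold change was 0.14. Of these genes 17.2% were higher at an unadjusted p under 0.05 and 24.5% did not overlap with I/R + rapamycin higher, against 52.8% of the members by either measure. These 2727 genes were still somewhat longer, with a median implied length of 1932 bases against 1676 bases over all 72 members. With the length trend removed, the medians were 0.11 for the large and 0.09 for the small subunit, with 38 of 44 and 25 of 28 genes above 0. The part of length in the members' differences was otherwise not tested.

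**Figure D3:**
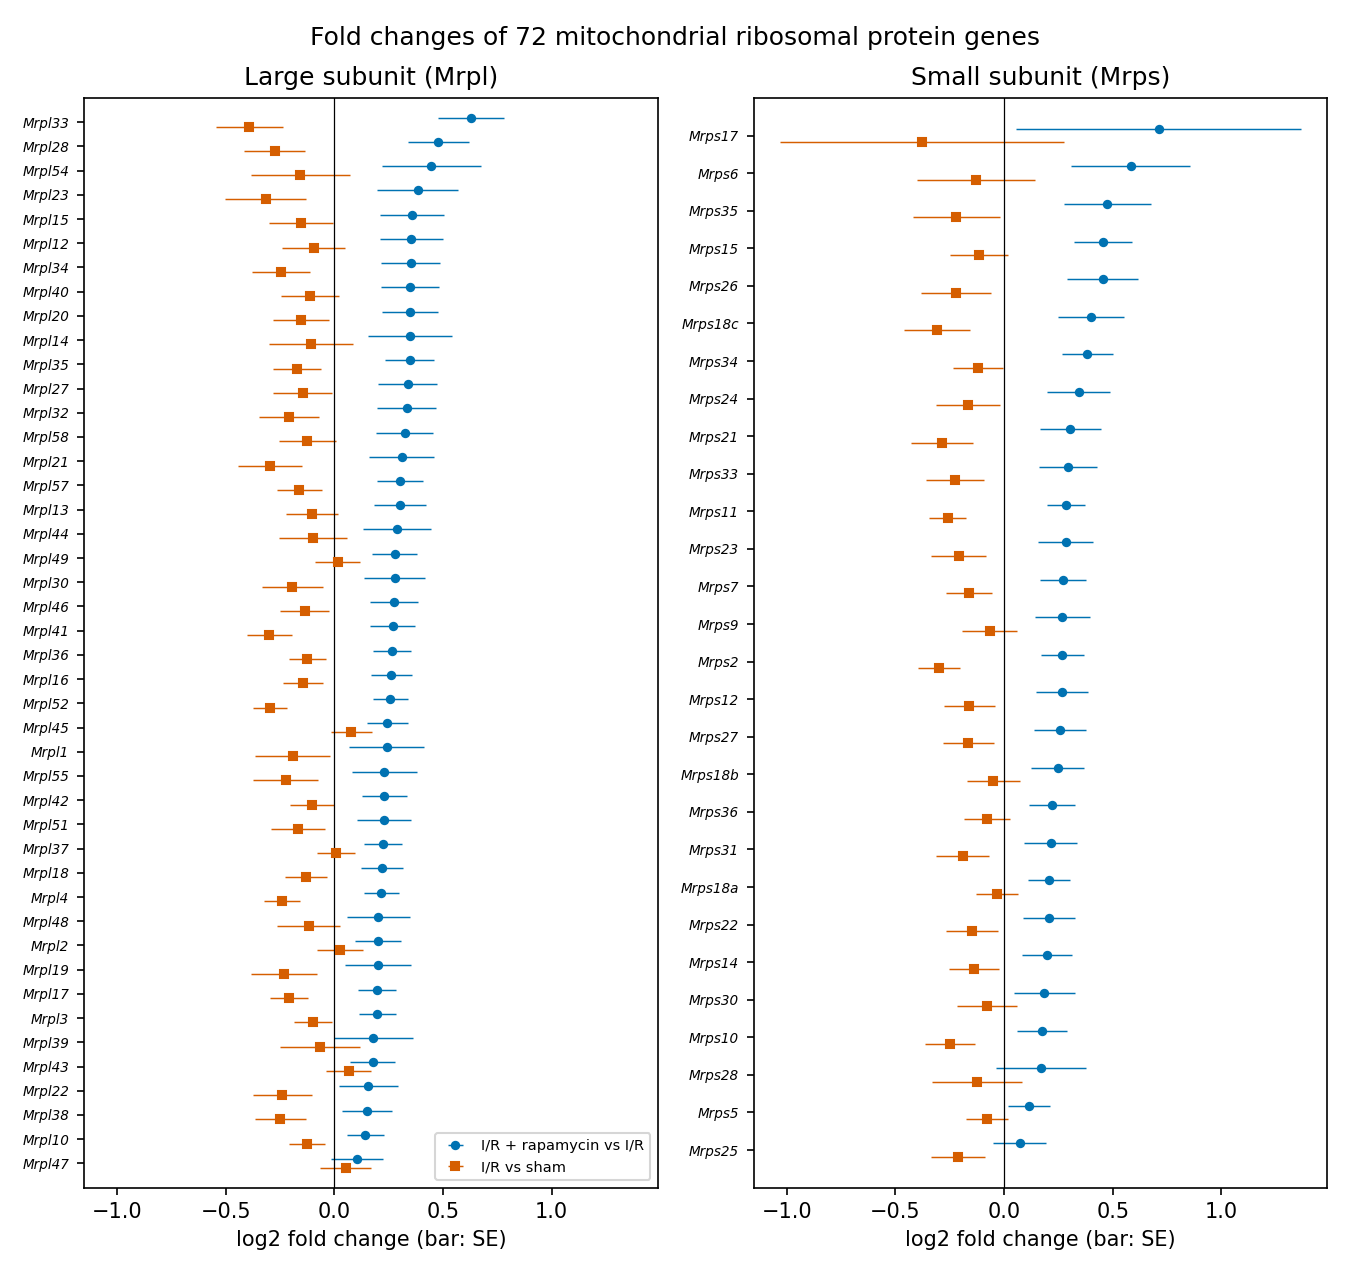
Fitted log2 fold change of each of the 72 genes with its standard error as the bar, for I/R + rapamycin over I/R (circles) and I/R over sham (squares). All circles lie above 0, and 66 of the 72 squares lie below 0. The comparisons share the I/R libraries.

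Mrpl33 (ENSRNOG00000025388), the counterpart of a small bacterial large-subunit protein, had the smallest p. Its CPM was 26.0, 24.4 and 24.2 in I/R + rapamycin libraries, 14.1, 15.8 and 18.3 in I/R libraries and 19.4, 26.1 and 17.8 in the sham libraries. All I/R + rapamycin libraries were above all I/R libraries, and the sham libraries overlapped both groups. The log2 fold change of I/R + rapamycin over I/R was 0.63 (SE 0.15, adjusted p = 0.125 in edgeR's quasi-likelihood test).

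Mrpl28 (ENSRNOG00000042720), also shared with bacteria, was at 39.2, 37.6 and 33.5 CPM in I/R + rapamycin libraries, 21.9, 30.6 and 26.7 CPM in I/R libraries and 30.5, 36.8 and 28.6 CPM in the sham libraries. The order was that of Mrpl33, with a log2 difference of 0.48 (SE 0.14, adjusted p = 0.166, edgeR). Mrpl52 (ENSRNOG00000039297), found in mitochondrial ribosomes only, was at 66.3, 69.1 and 62.0 CPM in I/R + rapamycin libraries, 56.0, 54.8 and 54.2 CPM in I/R libraries and 68.0, 71.9 and 62.7 CPM in the sham libraries. Its I/R libraries lay together and below all the others. The log2 fold change of Mrpl52 was 0.26 for I/R + rapamycin over I/R (SE 0.08, adjusted p = 0.177, edgeR) and -0.30 for I/R over sham (SE 0.08, adjusted p = 0.288, edgeR).

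Mrps15 (ENSRNOG00000008279), which binds the small ribosomal RNA in bacteria, was at 47.6, 42.4 and 37.5 CPM in I/R + rapamycin libraries, 26.7, 34.6 and 31.6 CPM in I/R libraries and 32.7, 38.2 and 29.7 CPM in the sham libraries. The groups I/R + rapamycin and I/R did not overlap, and sham 2 lay within the rapamycin range. The log2 fold change of I/R + rapamycin over I/R was 0.46 (SE 0.13, adjusted p = 0.167, edgeR). Mrps11 (ENSRNOG00000018531), a protein of the small subunit platform, was at 31.6, 32.2 and 30.1 CPM in I/R + rapamycin libraries, 24.2, 26.8 and 25.9 CPM in I/R libraries and 29.3, 31.9 and 31.0 CPM in the sham libraries. Its I/R libraries were the lowest of the 9, with a log2 difference of 0.29 for I/R + rapamycin over I/R (SE 0.09, adjusted p = 0.172, edgeR). Mrps34 (ENSRNOG00000015479), found in mitochondrial ribosomes only and mutated in a human respiratory chain disease, was at 84.2, 71.7 and 61.2 CPM in I/R + rapamycin libraries, 50.3, 59.6 and 56.6 CPM in I/R libraries and 57.9, 63.5 and 59.4 CPM in the sham libraries. I/R + rapamycin 3 lay only just above I/R 2, and the log2 fold change was 0.38 (SE 0.12, adjusted p = 0.172, edgeR).

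**Figure D4:**
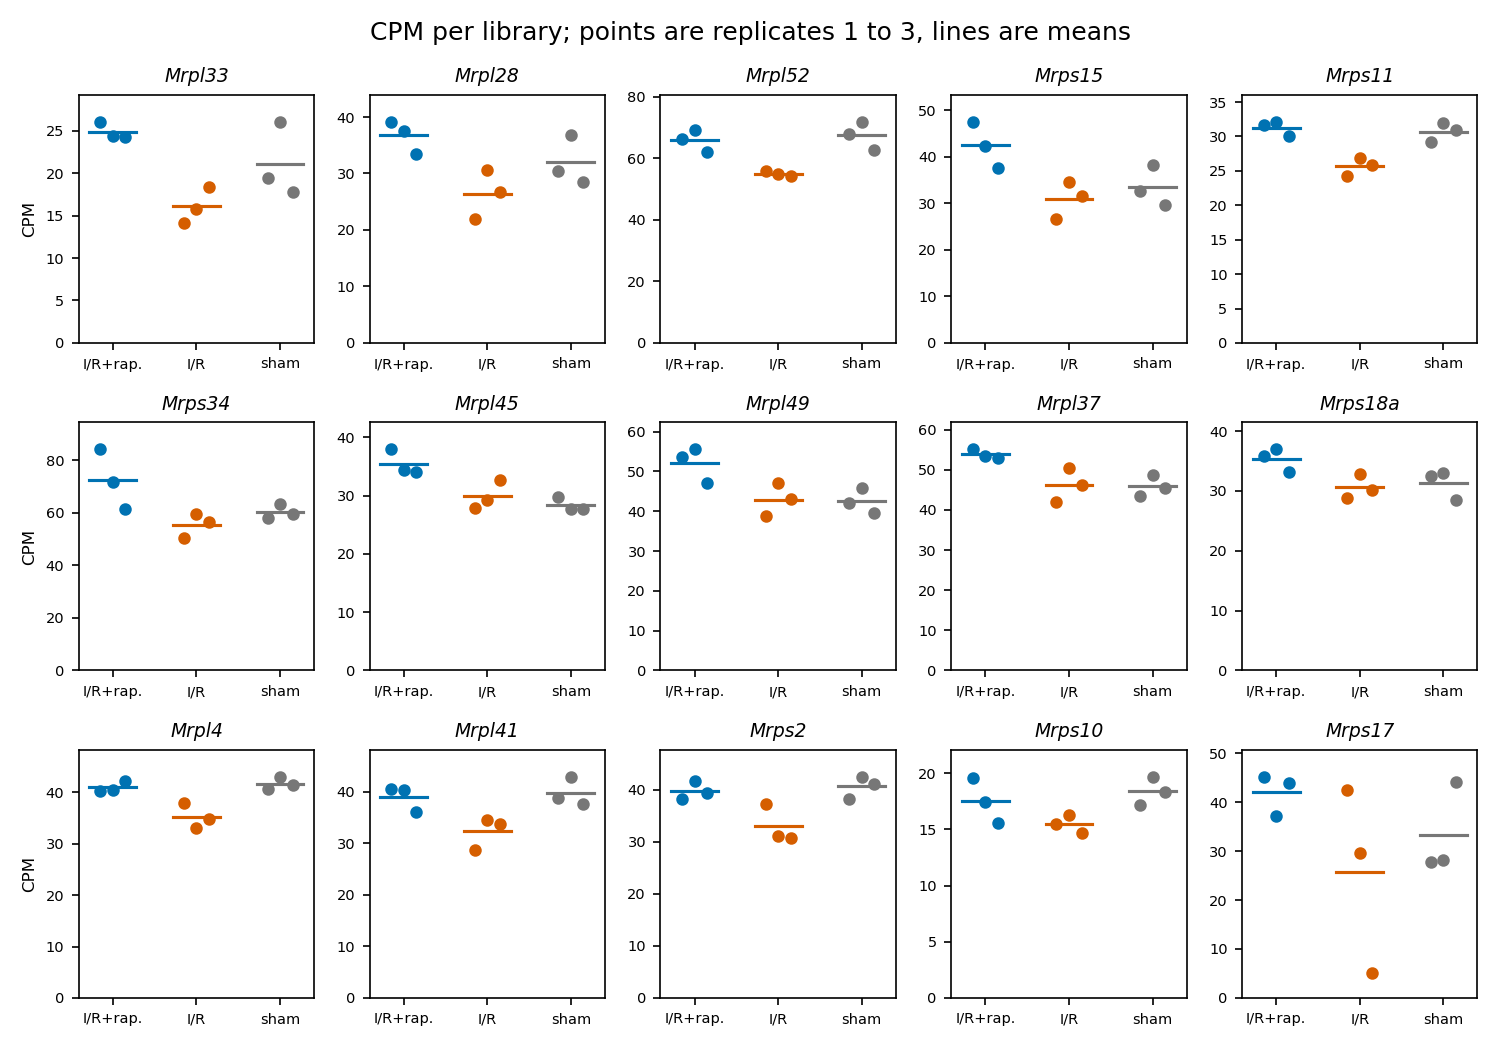
CPM in each library for the members with the smallest p in each comparison and for Mrps17, with the I/R + rapamycin, I/R and sham libraries from left to right and a line at each group mean. The I/R points of Mrpl33, Mrpl52 and Mrps11 lie below all I/R + rapamycin points, and Mrps17 shows the low point of I/R 3.

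No gene of the ribosomal stalk, which recruits translation factors, passed the test. Of these, Mrpl12 had a log2 difference of 0.35 for I/R + rapamycin over I/R (SE 0.15, adjusted p = 0.27, edgeR), Mrpl10, on which it sits, had 0.14 (SE 0.08, adjusted p = 0.431, edgeR), and mrpl11, listed with a lower-case symbol, had 0.28 (SE 0.09, adjusted p = 0.203, edgeR). Mrps12, at the decoding centre, was at 22.0 ± 1.85 FPKM in I/R + rapamycin, 19.2 ± 1.65 FPKM in I/R and 21.1 ± 1.85 FPKM in sham. Mrps7, of the small subunit head, was at 30.1 ± 1.67 FPKM in I/R + rapamycin, 26.2 ± 2.31 FPKM in I/R and 28.8 ± 1.57 FPKM in sham. These 2 small subunit genes had the same log2 fold change of 0.27 for I/R + rapamycin over I/R (SE 0.12 and 0.11).

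Mrpl58 is a peptidyl-tRNA hydrolase of the large subunit that can release stalled ribosomes. Its level was 38.5 ± 2.14 FPKM in I/R + rapamycin, 32.2 ± 3.91 FPKM in I/R and 34.5 ± 3.91 FPKM in sham, with a log2 difference of 0.32 for I/R + rapamycin over I/R (SE 0.13, adjusted p = 0.266, edgeR). Mrpl44, which carries an RNase III-like fold, had 0.29 (SE 0.16, adjusted p = 0.387, edgeR), and Mrpl3 had 0.20 (SE 0.09, adjusted p = 0.294, edgeR). Mutations of these last 2 genes cause cardiomyopathy in humans. Mrps22, whose mutation in humans can cause cardiomyopathy with a tubulopathy, was at 28.2, 30.2 and 28.6 CPM in I/R + rapamycin libraries, 22.0, 27.2 and 26.1 CPM in I/R libraries and 24.9, 32.1 and 26.5 CPM in the sham libraries. All I/R libraries were below the I/R + rapamycin libraries and the sham libraries overlapped both, with a log2 difference of 0.21 for I/R + rapamycin over I/R (SE 0.12, adjusted p = 0.428, edgeR).

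Symbols do not always match the place of a protein in the ribosome. Mrps18a, Mrps18b and Mrps18c encode paralogues of 1 bacterial protein, and Mrps18a and Mrps30 sit in the large subunit in spite of their names. For I/R + rapamycin over I/R the log2 fold change was 0.21 for Mrps18a (SE 0.10), 0.25 for Mrps18b (SE 0.12), 0.40 for Mrps18c (SE 0.15) and 0.19 for Mrps30 (SE 0.14). Mean levels were 33.1 FPKM for Mrps18a and 32 FPKM for Mrps18b, against 10.4 FPKM for Mrps18c. Mrps36 is now placed in the oxoglutarate dehydrogenase complex and not in the ribosome, and its log2 fold change was 0.22 (SE 0.11). With Mrps18a and Mrps30 counted by place, the medians were 0.26 over 46 large and 0.27 over 26 small subunit genes, and without Mrps36 the small subunit median was 0.27.

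Genes with a bacterial counterpart and genes found in mitochondria only gave like medians. For I/R + rapamycin over I/R the median log2 fold change was 0.29 over the 26 large subunit genes with a bacterial counterpart and 0.25 over the 18 found in mitochondria only, and 0.27 over 17 and 0.26 over 11 genes of the small subunit. In I/R over sham the same medians were -0.18, -0.12, -0.16 and -0.19. The classes follow the symbols, so Mrps18a was counted among the 17 and Mrps30 and Mrps36 among the 11. The difference between the classes was not tested.

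Mrps17, the counterpart of a bacterial protein that binds the small ribosomal RNA early in assembly, had the largest fitted difference and the widest spread. Its CPM was 45.2, 37.1 and 44 in I/R + rapamycin libraries, 42.5, 29.7 and 4.99 in I/R libraries and 27.8, 28.2 and 44.2 in the sham libraries. The low value of I/R 3 stood apart from all the others, and the groups overlapped. For I/R + rapamycin over I/R the log2 fold change was 0.71 with a standard error of 0.66 (adjusted p = 0.639, edgeR). Mrps6 was high in 1 library, at 50.4 CPM in I/R + rapamycin 1 against 26.8 to 30.3 CPM in the other I/R + rapamycin libraries, 17.6 to 31.0 CPM in I/R and 22.2 to 31.1 CPM in sham.

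Setting I/R + rapamycin against sham asks how treated injured kidneys differed from uninjured ones. Of the large subunit genes 37 of 44 and of the small subunit genes 25 of 28 were fitted above 0, where 50.2% of tested genes were, with medians of 0.13 and 0.10. Of the 2727 genes of like length 64.0% were fitted above 0, with a median of 0.07. Removing the length trend left 32 of 44 large and 16 of 28 small subunit genes above 0, with medians of 0.07 and 0.04. No member was called by edgeR's quasi-likelihood test, where 0.156% of tested genes were, and none with DESeq2, where 1.14% of genes were called higher. At an unadjusted p under 0.05, 4 large and 2 small subunit genes were higher, where 6.06% of tested genes were, and none was lower, where 7.75% were. The groups did not overlap, with I/R + rapamycin higher, for 5 large subunit genes and 1 small subunit gene, where 9.69% of tested genes showed this, so these counts were near the background. Among the genes of like length 10.6% were higher at an unadjusted p under 0.05 and 14.3% did not overlap with I/R + rapamycin higher, against 8.33% of the members by either measure. The number of members at that p was 6 with all libraries, 2 without I/R + rapamycin 1, 1 without I/R + rapamycin 2, 2 without sham 1, 1 without sham 3, 11 without I/R + rapamycin 3 and 16 without sham 2.

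Mrpl45 (ENSRNOG00000010540) anchors the ribosome to the inner membrane beside the exit tunnel. Its CPM was 38.0, 34.4 and 34 in I/R + rapamycin libraries, 28, 29.2 and 32.6 in I/R libraries and 29.8, 27.7 and 27.7 in the sham libraries. Every I/R + rapamycin library was above all 6 others. The log2 fold change of I/R + rapamycin over sham was 0.32 (SE 0.09, adjusted p = 0.197 in edgeR's quasi-likelihood test).

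Mrpl49 and Mrpl37, both found in mitochondrial ribosomes only, had the next smallest p. Mrpl49 was at 53.6, 55.6 and 47.0 CPM in I/R + rapamycin libraries, 38.8, 47.0 and 43.0 CPM in I/R libraries and 42.2, 45.8 and 39.4 CPM in the sham libraries. Mrpl37 was at 55.2, 53.5 and 53.0 CPM in I/R + rapamycin libraries, 41.9, 50.4 and 46.3 CPM in I/R libraries and 43.5, 48.8 and 45.5 CPM in the sham libraries. For both genes the I/R and sham libraries overlapped and the I/R + rapamycin libraries lay above them, by a narrow margin for I/R + rapamycin 3 over I/R 2 in Mrpl49. The log2 fold changes over sham were 0.29 for Mrpl49 (SE 0.10, adjusted p = 0.255, edgeR) and 0.23 for Mrpl37 (SE 0.09, adjusted p = 0.293, edgeR). In the small subunit the smallest p belonged to Mrps15 with 0.34 (SE 0.13, adjusted p = 0.304, edgeR), Mrps34 with 0.26 (SE 0.12, adjusted p = 0.351, edgeR) and Mrps18a with 0.17 (SE 0.10, adjusted p = 0.464, edgeR).

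Setting I/R against sham asks how injured and uninjured kidneys differed. Here 38 of 44 large and all 28 small subunit genes were fitted below 0, where 49.3% of tested genes were, with medians of -0.15 and -0.16. Of the 2727 genes of like length 1770 were fitted below 0, with a median of -0.07. The Spearman correlation between log2 fold change and implied length was 0.30 over 11232 genes. Removing the length trend left 32 of 44 large and 23 of 28 small subunit genes below 0, with medians of -0.06 and -0.07. No member was called by edgeR's quasi-likelihood test, where 0.0577% of tested genes were, and none with DESeq2, where 0.674% of genes were called lower. At an unadjusted p under 0.05, 5 large and 2 small subunit genes were lower, where 4.59% of tested genes were, and none was higher, where 4.83% were. The groups did not overlap, with I/R lower, for 6 large and 3 small subunit genes, where 7.19% of tested genes showed this. Among the genes of like length 8.25% were lower at an unadjusted p under 0.05 and 11.7% did not overlap with I/R lower, against 9.72% and 12.5% of the members, so these counts were near that background. Members at that p numbered 7 with all libraries, 4 without I/R 1, 4 without sham 2, 12 without I/R 2 and 13 without sham 3.

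Without I/R 1 the medians were -0.08 in the large and -0.08 in the small subunit, with 33 of 44 and 21 of 28 genes below 0. Without sham 2 they were -0.06 and -0.09, with 32 of 44 and 22 of 28 genes below 0. The 6 large subunit genes fitted above 0 in I/R were Mrpl2, Mrpl37, Mrpl43, Mrpl45, Mrpl47 and Mrpl49, the largest at 0.08 for Mrpl45. This comparison shares the I/R libraries with that of I/R + rapamycin against I/R, so a library such as I/R 1 moves both in opposite directions.

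Mrpl4, which reaches into the exit tunnel in bacteria, was at 40.3, 40.4 and 42.2 CPM in I/R + rapamycin libraries, 37.9, 33.1 and 34.7 CPM in I/R libraries and 40.6, 43.1 and 41.4 CPM in the sham libraries. Mrpl41, found in mitochondrial ribosomes only, was at 40.6, 40.2 and 36 CPM in I/R + rapamycin libraries, 28.7, 34.6 and 33.7 CPM in I/R libraries and 38.7, 42.9 and 37.7 CPM in the sham libraries. Both had their 3 lowest values in the I/R libraries. The log2 fold changes of I/R over sham were -0.24 for Mrpl4 (SE 0.08, adjusted p = 0.401, edgeR) and -0.30 for Mrpl41 (SE 0.10, adjusted p = 0.402, edgeR).

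Mrps2, the counterpart of a bacterial small subunit protein, was at 38.3, 41.8 and 39.4 CPM in I/R + rapamycin libraries, 37.3, 31.1 and 30.7 CPM in I/R libraries and 38.3, 42.6 and 41.2 CPM in the sham libraries. Its I/R libraries were the lowest, though I/R 1, the highest of them, came near both other groups. The log2 fold change of I/R over sham was -0.30 (SE 0.10, adjusted p = 0.381, edgeR), and it was -0.26 for Mrps11 (SE 0.09, adjusted p = 0.39, edgeR). Mrps10 was at 19.5, 17.4 and 15.5 CPM in I/R + rapamycin libraries, 15.5, 16.3 and 14.7 CPM in I/R libraries and 17.2, 19.7 and 18.3 CPM in the sham libraries, so that the I/R libraries lay below the sham libraries and overlapped the I/R + rapamycin libraries. Its log2 fold change of I/R over sham was -0.25 (SE 0.12, adjusted p = 0.546, edgeR).

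Other genes of mitochondrial translation did not all take the members' course. Of 7 listed ribosomal proteins with other symbols, among them Ict1, an older name of Mrpl58, 5 were measured under those symbols, and their median log2 fold change of I/R + rapamycin over I/R was 0.17. Gadd45gip1, a large subunit protein, was at 33.3, 32.6 and 26.2 CPM in I/R + rapamycin libraries, 18.8, 21.5 and 22.6 CPM in I/R libraries and 25.9, 33.1 and 22.9 CPM in the sham libraries, much as Mrpl33 was. Ptcd3, a pentatricopeptide protein of the small subunit, was at 256, 277 and 298 CPM in I/R + rapamycin libraries, 367, 287 and 226 CPM in I/R libraries and 203, 212 and 158 CPM in the sham libraries. Its sham libraries were the lowest of the 9, with a log2 difference of 0.62 for I/R over sham (SE 0.17, adjusted p = 0.293 in edgeR's quasi-likelihood test), a direction that no small subunit member had. With DESeq2, Gadd45gip1 had an adjusted p of 0.0288 for I/R + rapamycin over I/R and Ptcd3 one of 0.0398 for I/R over sham.

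For I/R + rapamycin over I/R, 26 of 30 genes listed for ribosome assembly were fitted above 0 with a median of 0.14. So were 11 of 14 translation factors with 0.09 and 12 of 18 mitochondrial aminoacyl-tRNA synthetases with 0.07. Of 16 genes listed for mitochondrial transcription and its regulation, 7 were, with a median of -0.03. The lists are broad: Nsun3 and Ppif in the first and Polg and Twnk in the last have their main roles elsewhere. None of the listed genes was called by edgeR's quasi-likelihood test, where 0.127% of tested genes were. DESeq2 called 3 of them, all higher in I/R + rapamycin, as 1.69% of the genes with a DESeq2 adjusted p were. In I/R over sham these medians lay between -0.05 and 0.01. For I/R + rapamycin over I/R the smallest p in the assembly list belonged to Ddx28, an RNA helicase of large subunit assembly, with 0.52 (SE 0.14, adjusted p = 0.141, edgeR). Fastkd5, a factor of mitochondrial RNA processing, followed with 0.47 (SE 0.13, adjusted p = 0.161, edgeR). Tfb2m, the initiation factor of mitochondrial transcription, had 0.31 (SE 0.09, adjusted p = 0.149, edgeR). These were the 3 genes that DESeq2 called, with adjusted p of 0.0255 for Ddx28, 0.0456 for Fastkd5 and 0.0375 for Tfb2m. The regulators Myc, at -0.44 (SE 0.19), and Ppargc1a, at -0.38 (SE 0.17), were fitted below 0.

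Of the 13 mitochondrially encoded mRNAs, which these ribosomes translate, 12 were fitted above 0 in I/R + rapamycin over I/R, with a median log2 fold change of 0.31. In I/R + rapamycin over sham the median was 0.23 and 12 were above 0, and in I/R over sham the median was -0.02 and 6 were above 0. None was called by edgeR's quasi-likelihood test in these comparisons, where 0.127%, 0.156% and 0.0577% of tested genes were. DESeq2 called 5 higher in I/R + rapamycin than in I/R, as 1.69% of the genes with a DESeq2 adjusted p were. It called 3 higher in I/R + rapamycin than in sham, as 1.14% of genes were. The largest log2 fold change of I/R + rapamycin over I/R was that of Mt-nd6, at 0.75 (SE 0.17, adjusted p = 0.122, edgeR). The strand setting of the counts is not given, so reads from the opposite strand could not be told apart here. These transcripts are short too, with a median implied length of 882 bases.

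**Figure D5:**
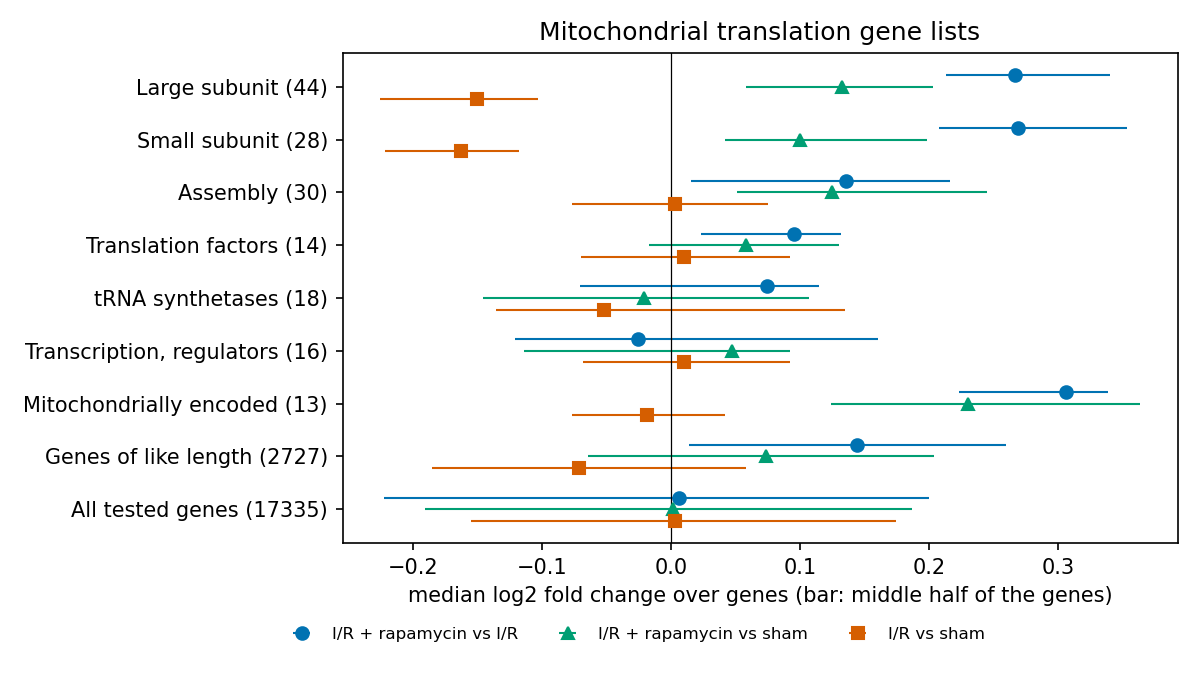
Median log2 fold change over the genes of each list (points) with the interquartile range of the genes (bars) in the 3 comparisons, for both subunits, 5 other lists, genes of like implied length and all tested genes. Both subunits lie at 0.27 in I/R + rapamycin over I/R, above the 0.14 of genes of like length, and only the mitochondrially encoded mRNAs, at 0.31, lie as high among the lists shown.

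Promoter sequences show what the start regions of the members hold. RefSeq promoters (build GRCr8, 250 bases before to 50 after the first listed start) were found for 58 of the 72 members, 36 large and 22 small. Members were matched by Entrez gene ID, or by symbol where the ID was absent, and other genes of the FPKM table by that ID alone. Both strands were searched for 5 motifs: NRF1 as GCGC, any base and TGCGC, ETS as CCGGAAGT, YY1 as AAGATGGC, the GC box as GGGCGG and the E-box as CACGTG. NRF1, the ETS factor GABP and YY1 are known activators of nuclear genes for mitochondrial proteins. No 2 different motifs overlapped in a member.

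The YY1 letters were in 14 of 58 member promoters, or 24.1%, against 5.80% of the 8451 promoters of genes in the FPKM table and 3.44% of all 27457 promoters. They were in 7 of 36 large and 7 of 22 small subunit promoters. The NRF1 letters were in 15.5% of member promoters, against 10.3% of FPKM-table genes and 4.71% of all promoters. The ETS letters were in 12.1%, against 8.97% and 4.01%, the GC box in 29 of 58, against 63.1% and 34.9%, and the E-box in 10.3%, against 9.84% and 6.65%. The matches are a description and not evidence of binding.

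The promoters printed are those of the genes with the smallest p in the large subunit for each comparison, Mrpl33, Mrpl45 and Mrpl52, of Mrps18b, the member with the most kinds of motif, and of Mrps11, whose start lies beside that of Mrpl46. Each is written 5′ to 3′ on the gene's strand with the motif matches in capitals.
Mrpl33 (chr6:30553938-30554237, minus strand): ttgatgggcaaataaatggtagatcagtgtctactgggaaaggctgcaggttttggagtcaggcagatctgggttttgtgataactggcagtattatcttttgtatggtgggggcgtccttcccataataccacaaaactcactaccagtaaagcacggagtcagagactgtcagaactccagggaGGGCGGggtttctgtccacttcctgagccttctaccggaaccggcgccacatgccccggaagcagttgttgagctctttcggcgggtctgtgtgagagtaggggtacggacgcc
Mrpl45 (chr10:82804789-82805088, plus strand): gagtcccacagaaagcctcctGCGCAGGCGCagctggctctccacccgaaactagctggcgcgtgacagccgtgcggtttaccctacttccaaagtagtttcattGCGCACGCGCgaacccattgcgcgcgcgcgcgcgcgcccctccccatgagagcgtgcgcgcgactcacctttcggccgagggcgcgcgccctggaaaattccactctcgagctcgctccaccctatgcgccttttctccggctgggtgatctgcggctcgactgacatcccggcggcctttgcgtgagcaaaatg
Mrpl52 (chr15:31852686-31852985, plus strand): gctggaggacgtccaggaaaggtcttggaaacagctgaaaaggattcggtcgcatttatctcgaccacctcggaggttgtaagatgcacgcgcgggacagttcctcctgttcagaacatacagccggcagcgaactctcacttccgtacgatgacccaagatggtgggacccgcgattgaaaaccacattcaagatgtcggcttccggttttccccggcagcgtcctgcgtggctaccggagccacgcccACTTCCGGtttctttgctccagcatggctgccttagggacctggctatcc
Mrps18b (chr20:2842756-2843055, plus strand): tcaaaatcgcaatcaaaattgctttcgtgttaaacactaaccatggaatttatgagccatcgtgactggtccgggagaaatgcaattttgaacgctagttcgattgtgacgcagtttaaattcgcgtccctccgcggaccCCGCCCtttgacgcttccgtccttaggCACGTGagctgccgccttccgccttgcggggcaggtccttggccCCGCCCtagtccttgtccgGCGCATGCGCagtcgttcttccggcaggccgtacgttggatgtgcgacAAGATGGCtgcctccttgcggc
Mrps11 (chr1:142117014-142117313, plus strand): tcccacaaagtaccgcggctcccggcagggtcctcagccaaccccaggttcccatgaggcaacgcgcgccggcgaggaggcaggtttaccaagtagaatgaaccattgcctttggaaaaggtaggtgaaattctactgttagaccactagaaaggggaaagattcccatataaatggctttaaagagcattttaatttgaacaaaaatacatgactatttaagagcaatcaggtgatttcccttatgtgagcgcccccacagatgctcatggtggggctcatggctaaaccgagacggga

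The Mrpl33 window held 1 GC box, with its first base 64 bases before the start. The Mrpl45 window held 2 NRF1 matches, first bases 229 and 145 bases before the start. The Mrpl52 window held 1 ETS match on the other strand that begins at the start itself. The Mrps18b window held 4 kinds of motif, GC boxes at 110 and 39 bases before the start, an E-box at 83, an NRF1 match at 20 before it and a YY1 match 29 bases after it. The Mrps11 window held none of the 5, which says only that these letters are not in it. The window of Mrpl46, which overlaps that of Mrps11 on the other strand, held 1 YY1 match.

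Many members share a start region with a neighbour on the other strand. Of the 58 matched members, 18 had a neighbour's start on the other strand within 1000 bases in a head-to-head arrangement, or 31.0%, against 11.4% of all genes of the promoter table. The share among genes of the FPKM table was not computed, so whether it is particular to the members was not tested. Mrps11 and Mrpl46 form 1 such pair with starts 234 bases apart, and both are members, so a small and a large subunit gene begin side by side. Mrpl46, a large subunit protein, was at 24.1, 24.1 and 22.9 CPM in I/R + rapamycin libraries, 17.3, 19.5 and 22.0 CPM in I/R libraries and 20.9, 23.4 and 20.3 CPM in the sham libraries. For I/R + rapamycin over I/R the log2 fold change was 0.27 for Mrpl46 (SE 0.11) and 0.29 for Mrps11 (SE 0.09).

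Of 12 measured neighbours that are no members, 7 were fitted above 0 in I/R + rapamycin over I/R, with a median of 0.11. The highest were Mitd1 beside Mrpl30 with 0.27 (SE 0.15) and Ndufb5 beside Mrpl47 with 0.21 (SE 0.10). At the other end, Ppp1r10 beside Mrps18b had -0.36 (SE 0.10) and Pnpla7 beside Mrpl41 had -0.30 (SE 0.08), where Mrps18b had 0.25 and Mrpl41 had 0.27. The strand setting of the counts is not given in the sources used here, so reads of overlapping genes on the 2 strands could not be told apart.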

How the data were processed

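Kidney poly(A) RNA of 9 libraries in 3 groups of 3 was sequenced as read pairs in batch 1, per the labels. The submitters' processing notes list the build Rnor_6.0 and the tools StringTie, HISAT2, cutadapt and DESeq2. Versions, annotation and strand setting: not given in the sources used here. Whole-number counts for 30454 gene IDs were deposited by the authors. A second table holds, per the file headers, the authors' FPKM of 11235 genes that reach 1 FPKM in 8 or more of the 9 libraries, beside the same counts. Symbols come from that table. Symbols of the family absent from it, such as Mrps16, were not analysed here.

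The counts were fitted in R 4.3.3 with edgeR 4.0.16 (TMM factors, the default filter by group, robust quasi-likelihood test, all 9 libraries in one fit, Benjamini-Hochberg adjustment over 17335 genes, threshold 0.05). The SE of a log2 fold change was derived from it and the F statistic of the test. The implied length is that which the ratio of counts to FPKM gives. The test was run on simulated data as a check, and how often it finds differences of the members' size is not given here. Libraries of a group differed by a chi-square per degree of freedom of 30.7 to 119, so none was a copy of another. Deviations of same-numbered libraries correlated at -0.19 to 0.13, so the numbers were not taken to pair samples.

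The members and the lists were chosen with earlier results of these data known. The genes named were, per comparison and subunit, the 3 with the smallest p, per subunit the 3 highest and the 3 lowest by mean FPKM, the Mrps18 paralogues, Mrps30, the stalk proteins and 6 further members chosen for their roles. Mrps6, Mrps17, Mrps35, Mrps36, Mrpl46, the 6 large subunit genes fitted above 0 in I/R over sham, the neighbours, the length range of the genes of like length and the promoters printed were chosen with values in view. As alternatives, DESeq2 1.42.0 replaced edgeR, library factors came from DESeq2 or the upper quartile, low counts were not filtered or filtered at 10 CPM in 3 libraries, and the fit took the FPKM-table genes alone, the 6 libraries compared alone or the replicate block. Others were limma 3.58.1 on log2(FPKM + 1) and log2(FPKM + 0.1), removal of the length trend by loess, the subunit by place, each library left out in turn, and I/R 1 and sham 3 left out together.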

Additional observations from a re-analysis of the deposited data

How the results depend on the processing

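The median of each subunit kept its direction in the 3 comparisons under all alternatives run. Removing the length trend took the median of I/R + rapamycin over I/R to 0.107 in the large and 0.0911 in the small subunit. Members at an unadjusted p under 0.05 numbered 38 in that comparison, 25 with limma on log2(FPKM + 1) or log2(FPKM + 0.1), 14 without I/R 1 and sham 3 together, and 10 to 46 with single libraries left out. In I/R + rapamycin over sham they numbered 6, against 3 without I/R 1 and sham 3 and 1 to 16 with single libraries left out. In I/R over sham they numbered 7, against 11 with limma at either pseudocount and 4 to 13 with single libraries left out. DESeq2 called 3 members in I/R + rapamycin over I/R, and edgeR none.

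The number of all genes called by edgeR was 22, 27 and 10 for I/R + rapamycin over I/R, I/R + rapamycin over sham and I/R over sham. It was 693, 568 and 234 with DESeq2 and 128, 104 and 67 without I/R 1 and sham 3 together. With single libraries left out it ranged from 0 to 47, 3 to 47 and 0 to 36. With the replicate block it was 1, 7 and 1, and no member's call changed under the block. In I/R + rapamycin over I/R it was 6 in the fit of 6 libraries and 12 and 11 with limma on log2(FPKM + 1) and log2(FPKM + 0.1). In I/R over sham it was 2 in the fit of 6 libraries and 22 and 25 with limma. The cause of these shifts was not tested. With 3 libraries a group, the spread between libraries limits what differences of this size can show.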
